A study of Homo sapiens with 12 samples.

Results

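YAP-TFE3 and TAZ-CAMTA1 are the fusion proteins of epithelioid hemangioendothelioma, a sarcoma of blood vessels, and the expression programmes that set cells with YAP-TFE3 apart from cells with TAZ-CAMTA1 were compared here under a control hairpin. The groups compared hold 4 of the 12 RNA libraries of the series, picked by their titles alone: YAP-TFE3 shNon-targeting replicates 1 and 2 (YT shNT) against TAZ-CAMTA1 shNon-targeting replicates 1 and 2 (TC shNT). All 12 libraries came from SW872, an established human liposarcoma cell line, that was made to express a Flag-tagged fusion from a retroviral vector. The fusion lines had been selected with G418, and each line also carried a puromycin-selected hairpin vector. The other 8 libraries carried hairpins against YEATS2 or ZZZ3, subunits of the ATAC histone acetyltransferase complex, in the same fusion lines (2 libraries for each fusion and hairpin). The lines are pools of selected cells, a viral promoter drives the fusion, and no library of the parental line or of an empty vector was analysed here, so each value is a difference between the fusion lines and not a change from a common start. In what follows YT and TC mean the shNT libraries unless another hairpin is named, and values per library are counts per 1000000 counts of the TMM-scaled library (CPM).

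YAP and TAZ are related coactivators that the Hippo kinases keep out of the nucleus, and they act on genes through the TEAD family of DNA-binding factors. TAZ-CAMTA1 joins the start of TAZ to the end of CAMTA1, a calmodulin-binding transcription activator. YAP-TFE3 joins the start of YAP to TFE3, a basic helix-loop-helix leucine zipper factor of the MiT family, which binds E-box sequences and is known for switching on genes of lysosomes, autophagy and nutrient sensing. Both fusions keep a TEAD-binding part, and YAP-TFE3 also keeps the DNA-binding part of TFE3.

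Total counts were 27596240 and 19420504 in the TC libraries and 18880502 and 17451893 in the YT libraries. The TC libraries differed more from each other than the YT libraries did, with an SD of the log2 difference over genes of 0.622 against 0.268, and the TC difference followed GC content of the transcripts (Spearman 0.81 over 13232 genes, against -0.3 for the YT pair). The log2 fold changes between the lines also fell with GC content (Spearman -0.367 over the same genes, and -0.0188 once the trend was removed), and genes called higher in YT had a lower median GC content (46.6%) than genes called lower (52.1%). Counts without this GC trend are given where they differ from the main count by over 1.5 times, and the part of GC content in single results was otherwise not tested. Mitochondrial genes took 5.28% and 5.40% of the counts in TC and 3.66% and 3.98% in YT. Of the 152 called genes named in the text, 75 stayed called under every alternative fit and 152 kept their direction in each of them. These fits reuse the same libraries, so a kept direction is not separate support. Where a call was lost when 1 library was left out, the library is named. The study calls its libraries biological duplicates, the labels do not say whether they came from separate cultures, and p-values measure only the spread between these libraries. Exact intervals of count ratios cover counting error only.

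Of 18415 genes tested, 1699 (9.23%) differed between YT and TC at an adjusted p under 0.05 (edgeR quasi-likelihood test), 1027 (5.58%) with higher expression in YT and 672 (3.65%) with lower expression. The fit of all 12 libraries shares 1 estimate of spread, and a fit of the 4 shNT libraries alone called 941. These shares are the background for each count below. At least a 2-fold difference was found for 1293 of the 1699, 800 higher and 493 lower, and differences of at least 8-fold were mostly in 1 direction, with 138 genes higher in YT and 5 lower. Among the called genes 1519 were protein-coding and 134 were long non-coding RNAs. The YT and TC values of all 1699 did not overlap between the pairs, as was true of 51.3% of all genes tested. At an unadjusted p under 0.05 there were 4408 genes. In total, 486 genes were called without YT replicate 2, 523 without YT replicate 1, 1023 without TC replicate 1 and 3108 without TC replicate 2, and 3344 were called once the GC trend was removed. The median log2 fold change over all genes tested was -0.01.

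A set of 35 gene lists holding 768 symbols, of which 674 were tested, was used to describe these genes. The list most shifted towards YT was that of the integrated stress response, with a median log2 fold change of 2.05, and the most shifted towards TC were the mitosis and DNA replication lists at -1.50 and -1.07. Lysosomal genes, chemokines and cytokines were shifted less far towards YT, with medians of 0.74 and 0.81. The plot of the 35 lists shows these at the top and bottom, and it also shows lists with members far out in both directions, such as collagens, integrins and muscle structure.

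**Figure D1:**
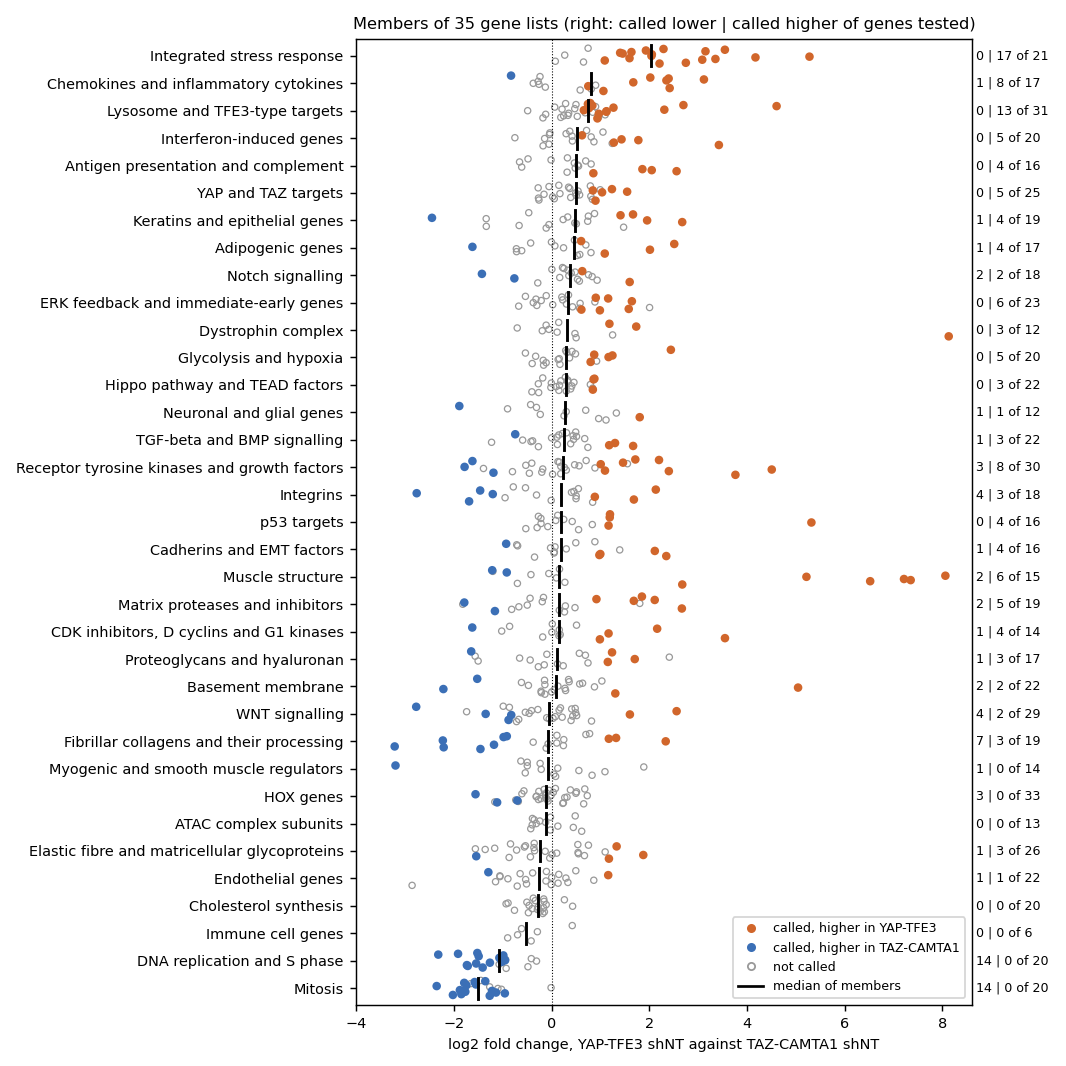
Log2 fold change between YAP-TFE3 shNT and TAZ-CAMTA1 shNT (x axis) of each tested member of 35 gene lists (rows), in order of their medians (black bars). Filled dots are genes called by edgeR, open dots are genes not called, and the numbers at the right are members called lower and called higher of those tested. The integrated stress response has 17 of 21 members called higher and mitosis 14 of 20 called lower.

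The integrated stress response is the programme by which cells under amino acid shortage, mitochondrial or endoplasmic reticulum stress phosphorylate the initiation factor eIF2 and translate the transcription factor ATF4, which with partners such as CHOP switches on amino acid transport and synthesis. Of its 21 listed genes, all tested, 17 were higher in YT and 0 were lower. INHBE (ENSG00000139269, GRCh38 chromosome 12, 57452323 to 57459280), a stress-induced activin subunit, stood at 1.91 and 2.29 CPM in TC and 75.8 and 93.9 CPM in YT (log2 fold change 5.28, SE 0.726, edgeR adjusted p 0.00126). FGF21, a stress-induced hormone, had 0 counts in both TC libraries and 1.32 and 1.73 CPM in YT, at least 10.6-fold higher against a floor of 3 counts in the shallower TC library (edgeR adjusted p 0.00178). Both TC libraries lay below both YT libraries for each of these genes, and the pairs were close together. STC2, a secreted glycoprotein that ATF4 induces, was at 26.1 and 40.6 CPM in TC and 366 and 416 CPM in YT (log2 fold change 3.55, SE 0.392, edgeR adjusted p 3.45e-04). DDIT3, which codes for CHOP itself, was at 13.7 and 12.5 CPM in TC and 127 and 143 CPM in YT (log2 fold change 3.36, SE 0.304, edgeR adjusted p 1.09e-04). The remaining 13 called members had log2 fold changes from 1.09 for CEBPB, a CHOP-related leucine zipper factor, to 3.15 for SLC7A11, the cystine transporter. They included CHAC1, which breaks down glutathione, at 3.09, the stress factor ATF3 at 2.75 and ASNS, asparagine synthetase, at 2.21. The 4 members not called were ATF4 (log2 fold change 0.65, edgeR adjusted p 0.0873, but 0.00533 without the GC trend and 0.0408 by DESeq2), PHGDH (0.27), VLDLR (0.75) and ATF5 (0.08). The count of members called higher was 11 without YT replicate 1. CEBPB did not pass without TC replicate 2 or either YT library (edgeR adjusted p up to 0.197). ASNS fell short of the threshold without TC replicate 1 or either YT library (edgeR adjusted p up to 0.08). SLC7A11 missed the threshold without YT replicate 1 (edgeR adjusted p 0.112).

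In windows of 250 bases before and 50 bases after the RefSeq start (GRCh38.p14), which were found for 18 of the 21 genes, the letters TGATGNAA, the form that ATF4 and C/EBP factors are known to bind together, were present on either strand in 5 of 18 (27.8%), against 1.79% of the promoters of all genes tested that had one (12656). This motif was searched after the counts had been seen. Among all genes called higher in YT it was in 4.52% of promoters and among those called lower in 2.07%. The 4 promoters with the letters upstream of the start are printed because they belong to called genes of the response, and capitals mark the motif on either strand.
FGF21, chr19:48755274-48755523, plus strand: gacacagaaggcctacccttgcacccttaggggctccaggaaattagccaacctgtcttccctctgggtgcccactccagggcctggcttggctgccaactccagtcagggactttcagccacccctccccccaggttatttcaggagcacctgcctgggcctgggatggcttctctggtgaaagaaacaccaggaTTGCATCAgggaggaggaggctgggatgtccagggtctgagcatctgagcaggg
CHAC1, chr15:40953221-40953470, plus strand: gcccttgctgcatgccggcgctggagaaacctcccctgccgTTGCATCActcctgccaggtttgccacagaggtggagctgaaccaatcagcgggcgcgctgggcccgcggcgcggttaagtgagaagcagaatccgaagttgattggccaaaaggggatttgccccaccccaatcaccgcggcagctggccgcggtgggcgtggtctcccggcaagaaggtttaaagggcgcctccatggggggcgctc
ATF3, chr1:212565157-212565406, plus strand: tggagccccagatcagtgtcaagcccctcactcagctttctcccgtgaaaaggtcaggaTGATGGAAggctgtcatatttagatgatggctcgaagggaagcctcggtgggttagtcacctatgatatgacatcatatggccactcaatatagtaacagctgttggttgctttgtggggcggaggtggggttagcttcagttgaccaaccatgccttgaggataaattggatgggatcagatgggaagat
ASNS, chr7:97872409-97872658, minus strand: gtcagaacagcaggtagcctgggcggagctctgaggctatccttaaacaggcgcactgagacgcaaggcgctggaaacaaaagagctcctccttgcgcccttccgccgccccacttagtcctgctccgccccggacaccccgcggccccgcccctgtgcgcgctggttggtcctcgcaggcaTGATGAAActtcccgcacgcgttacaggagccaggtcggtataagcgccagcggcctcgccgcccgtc
The motif began 54 bases before the start in FGF21 and 68 in ASNS, and 209 and 191 in CHAC1 and ATF3. In the remaining gene of the 5, SLC3A2, it lay after the start. A match is only a run of letters, and no binding was measured here.

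**Figure D2:**
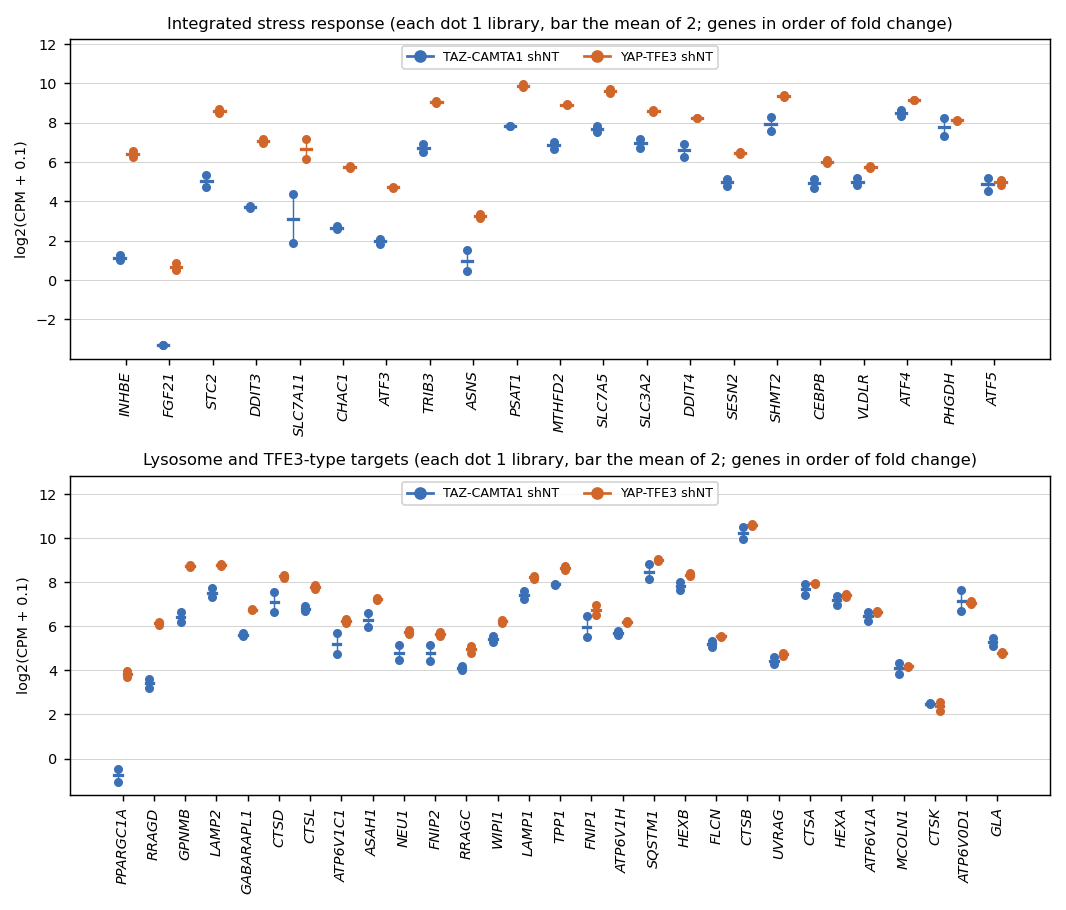
Expression on the scale log2(CPM + 0.1) (y axis) of tested members of the integrated stress response list (top) and the lysosome list (bottom), not all of them shown, in the 2 TAZ-CAMTA1 shNT (blue) and 2 YAP-TFE3 shNT (orange) libraries, with bars at the mean of 2. Stress response genes stand apart by up to a log2 fold change of 5.28 (INHBE), and most lysosomal genes by less than 1.27, the value of LAMP2.

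The lysosomal list holds genes of the lysosome and of autophagy and nutrient sensing that TFE3 and its relatives are known to bind. Of its 32 genes, 31 were tested, 13 were higher in YT and 0 were lower. PPARGC1A (ENSG00000109819, GRCh38 chromosome 4, 23755041 to 23904089), a coactivator that drives the formation of mitochondria, was at 0.381 and 0.621 CPM in TC and 15.5 and 12.7 CPM in YT (log2 fold change 4.61, SE 0.382, edgeR adjusted p 5.36e-05). RRAGD, a Rag GTPase that brings the growth-controlling kinase mTORC1 to lysosomes, was at 9.19 and 12.2 CPM in TC and 67.6 and 72.2 CPM in YT (log2 fold change 2.70, SE 0.208, edgeR adjusted p 3.05e-05). The 2 other members with the largest differences code for lysosomal membrane proteins. GPNMB was at 73.4 and 99.1 CPM in TC and 409.8 and 446 CPM in YT (log2 fold change 2.31, SE 0.194, edgeR adjusted p 5.32e-05), and LAMP2 was at 159 and 210.1 CPM in TC and 460.5 and 430.2 CPM in YT (log2 fold change 1.27, SE 0.188, edgeR adjusted p 0.00184). Other called members included RRAGC, a partner of RRAGD, at a log2 fold change of 0.84 and the lysosomal membrane protein LAMP1 at 0.77. CTSB, a cathepsin and the most abundant member, was at 1466 and 982 CPM in TC and 1481 and 1610 CPM in YT without a call (log2 fold change 0.34, edgeR adjusted p 0.488), and MCOLN1, a lysosomal calcium channel, was at 0.07. The list count was 6 without YT replicate 1 and 5 without YT replicate 2, and 20 with the GC trend removed, with list medians between 0.61 and 0.75 over all alternatives. RRAGC lost the call without TC replicate 1 or either YT library (edgeR adjusted p up to 0.218). LAMP1 did not pass without TC replicate 2 or either YT library (edgeR adjusted p up to 0.174).

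The E-box CACGTG was found on the promoters of 9 of the 18 lysosomal genes with one, against 9.85% of all promoters. The longer form TCACGTG was also in 9 of 18, against 5.67% of all. Over all genes called higher in YT the shares were 10.1% and 5.84%, and over those called lower 7.85% and 4.96%. The E-box was on 3 of 8 promoters of called members and on 6 of 10 of members not called. The promoters of PPARGC1A, RRAGC and LAMP1 are printed as called members of the list that hold the E-box upstream of the start, with the E-boxes in capitals.
PPARGC1A, chr4:24472906-24473155, minus strand: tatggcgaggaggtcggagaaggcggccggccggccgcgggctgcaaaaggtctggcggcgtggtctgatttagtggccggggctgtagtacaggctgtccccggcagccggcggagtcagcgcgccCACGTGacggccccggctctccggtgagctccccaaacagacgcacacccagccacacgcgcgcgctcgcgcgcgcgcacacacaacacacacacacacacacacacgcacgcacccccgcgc
RRAGC, chr1:38859773-38860022, minus strand: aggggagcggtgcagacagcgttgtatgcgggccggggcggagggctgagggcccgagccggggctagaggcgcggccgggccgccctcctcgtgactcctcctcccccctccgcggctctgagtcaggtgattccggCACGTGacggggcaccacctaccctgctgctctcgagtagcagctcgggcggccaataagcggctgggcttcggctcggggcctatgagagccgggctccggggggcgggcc
LAMP1, chr13:113296989-113297238, plus strand: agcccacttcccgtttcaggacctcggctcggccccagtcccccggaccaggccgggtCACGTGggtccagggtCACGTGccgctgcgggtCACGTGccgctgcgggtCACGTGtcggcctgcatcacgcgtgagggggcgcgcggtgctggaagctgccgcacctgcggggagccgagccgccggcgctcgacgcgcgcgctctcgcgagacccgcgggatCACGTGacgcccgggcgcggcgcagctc
The RefSeq start used for PPARGC1A lies far outside the GENCODE span of the gene given above, which ends at 23904089. Whether this start was used in these cells was not tested, and its promoter is among the 3 of 8 counted above. The first E-box began 123 bases before the start in PPARGC1A and 112 in RRAGC, and LAMP1 held 5 wholly before the start. These letters say nothing about which factor was on the DNA in either line.

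Genes of cell division were lower in YT. Of 20 genes of mitosis 14 were lower and 0 were higher, and the same counts held for 20 genes of DNA replication and S phase. KIF20A (ENSG00000112984, GRCh38 chromosome 5, 138178719 to 138187723), a kinesin of the dividing cell, was at 180.5 and 153 CPM in TC and 36.4 and 28.8 CPM in YT (log2 fold change -2.35, SE 0.256, edgeR adjusted p 3.19e-04). AURKB, the kinase of the chromosomal passenger complex, was at 47.4 and 31.3 CPM in TC and 10.9 and 8.40 CPM in YT (log2 fold change -2.02, SE 0.339, edgeR adjusted p 0.00389). CDC20, an activator of the anaphase-promoting complex, was at 103 and 61.5 CPM in TC and 25.1 and 19.5 CPM in YT (log2 fold change -1.88, SE 0.379, edgeR adjusted p 0.0104), and BIRC5 (survivin), a partner of AURKB, was at 116 and 77.6 CPM in TC and 28.9 and 24.8 CPM in YT (log2 fold change -1.85, SE 0.295, edgeR adjusted p 0.00288). No TC library lay as low as a YT library for any of these 4 genes. Among replication genes RRM2, the regulated subunit of ribonucleotide reductase, was at 41.0 and 42.5 CPM in TC and 6.55 and 10.1 CPM in YT (log2 fold change -2.32, SE 0.460, edgeR adjusted p 0.00955). TYMS, thymidylate synthase, was at 100.9 and 90.5 CPM in TC and 22.7 and 28.01 CPM in YT (log2 fold change -1.91, SE 0.218, edgeR adjusted p 3.87e-04). The other 2 largest differences were in CLSPN, a replication checkpoint adaptor, at 9.73 and 18.9 CPM in TC and 4.28 and 4.20 CPM in YT (log2 fold change -1.73, SE 0.389, edgeR adjusted p 0.0178), and in CDT1, a licensing factor, at 43.1 and 21.3 CPM in TC and 9.61 and 9.89 CPM in YT (log2 fold change -1.71, SE 0.429, edgeR adjusted p 0.0298). CENPF was the mitotic member with the smallest difference (-0.01), and there the pairs overlapped. All 40 log2 fold changes were below 0. In bulk RNA, fewer dividing cells and less of these transcripts per cell cannot be told apart. Without TC replicates 1 and 2 and YT replicates 1 and 2 in turn, 18, 13, 9 and 5 mitosis genes and 9, 13, 1 and 4 replication genes were lower. AURKB fell short of the threshold without YT replicate 2 (edgeR adjusted p 0.0587). CDC20 and RRM2 missed the threshold without either YT library (edgeR adjusted p up to 0.115). CLSPN lost the call without TC replicate 2 or either YT library (edgeR adjusted p up to 0.139). CDT1 did not pass without TC replicate 1 or either YT library (edgeR adjusted p up to 0.172).

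The genes that hold or release the cell cycle in G1 went several ways. CDKN2B, an inhibitor of the kinases CDK4 and CDK6, was higher in YT at 76.5 and 85.3 CPM in YT against 15.1 and 20.9 CPM in TC (log2 fold change 2.16, SE 0.240, edgeR adjusted p 3.50e-04), and CDKN2C, its relative p18, was lower at 17.7 and 15.4 CPM in YT against 55.0 and 47.4 CPM in TC (log2 fold change -1.62, SE 0.238, edgeR adjusted p 0.00181). CDKN1A (p21), which blocks CDK2, was at 17.6 and 18.3 CPM in YT against 9.73 and 6.12 CPM in TC (log2 fold change 1.17, SE 0.272, edgeR adjusted p 0.0213). Cyclin D1 and D2 were both higher: CCND1 was at 301 and 335 CPM in YT against 157 and 163 CPM in TC (log2 fold change 0.99, SE 0.184, edgeR adjusted p 0.00649), and CCND2 had 1 and 2 counts in TC and 31 and 31 in YT (26.8-fold, exact 95% counting interval 8.76 to 134). Thus 4 of the 14 listed genes were higher and 1 was lower, with 3 lower without TC replicate 2, 2 lower without the GC trend and 2 higher without YT replicate 2. For its main RNA sequencing the study states that lines containing CAMTA1 were taken before confluence and the others after growth to confluence. It does not say whether TAZ-CAMTA1 is meant, nor how the knock-down libraries were taken. If the fusion lines here differed in this way, harvest density and fusion cannot be told apart in these lists or in any other comparison of YT with TC. CDKN1A fell short of the threshold without TC replicate 2 or either YT library (edgeR adjusted p up to 0.129). CCND1 missed the threshold without YT replicate 2 (edgeR adjusted p 0.0828).

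**Figure D3:**
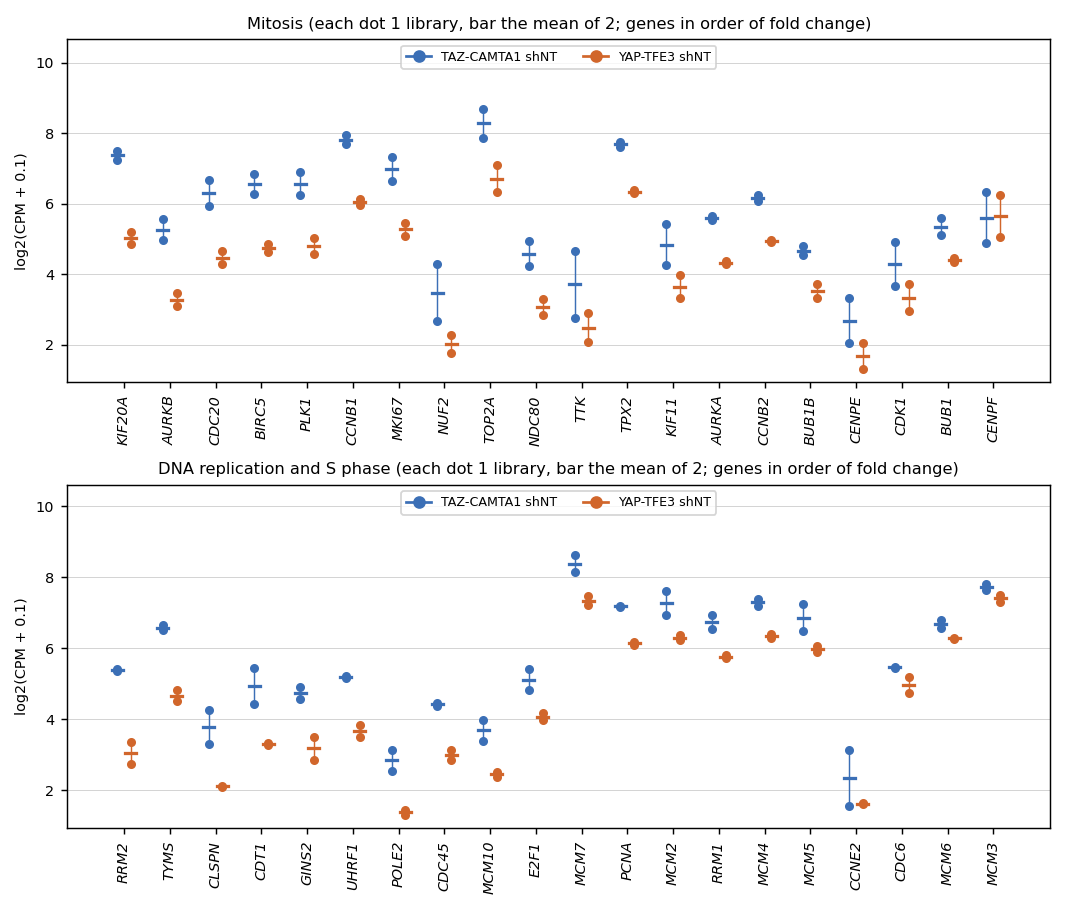
Expression on the scale log2(CPM + 0.1) (y axis) of 20 genes of mitosis (top) and 20 genes of DNA replication and S phase (bottom) in the 2 TAZ-CAMTA1 shNT (blue) and 2 YAP-TFE3 shNT (orange) libraries, with bars at the mean of 2. The YAP-TFE3 mean is lower for all but CENPF, and 14 genes in each panel were called lower.

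The extracellular matrix lists held called genes in both directions. Fibrillar collagen genes and their processing enzymes had 7 of 19 tested members lower in YT and 3 higher (5 higher without the GC trend). COL1A2 (ENSG00000164692, GRCh38 chromosome 7, 94394895 to 94431227) and COL1A1, the chains of type I collagen, were at 85.4 and 81.9 CPM in TC and 8.71 and 9.20 CPM in YT (log2 fold change -3.21, SE 0.205, edgeR adjusted p 1.54e-05) and at 66.5 and 52.5 CPM in TC and 13.3 and 12.3 CPM in YT (log2 fold change -2.21, SE 0.258, edgeR adjusted p 4.62e-04). The enzymes that cross-link these fibres moved in opposite directions, with LOX higher at 65.6 and 65.4 CPM in YT against 9.50 and 16.3 CPM in TC (log2 fold change 2.34, SE 0.335, edgeR adjusted p 0.00159) and its relative LOXL1 lower at 0.581 and 0.345 CPM in YT against 3.17 and 1.82 CPM in TC (log2 fold change -2.23, SE 0.425, edgeR adjusted p 0.00801). Without TC replicate 1 the 7 became 4, and with YT replicates 1 and 2 left out in turn they became 3 and 2. Basement membrane genes had 2 of 22 higher and 2 lower. Here LAMA1 (ENSG00000101680, GRCh38 chromosome 18, 6941742 to 7117797), the laminin alpha 1 chain of early basement membranes, had the largest difference of all 4 at 9.73 and 11.6 CPM in TC and 340.0 and 371 CPM in YT (log2 fold change 5.05, SE 0.304, edgeR adjusted p 1.54e-05). COL15A1, a collagen at the edge of basement membranes, was abundant in both lines at 499 and 585 CPM in TC and 1191 and 1488 CPM in YT (log2 fold change 1.31, SE 0.251, edgeR adjusted p 0.00825). FRAS1 and NID2, linkers of basement membrane layers, were lower at 18.8 and 28.8 CPM in TC and 5.60 and 4.49 CPM in YT (log2 fold change -2.21, SE 0.411, edgeR adjusted p 0.00669) and at 74.5 and 98.6 CPM in TC and 31.9 and 28.2 CPM in YT (log2 fold change -1.52, SE 0.391, edgeR adjusted p 0.0336). LOXL1 lost the call without TC replicate 1 or YT replicate 2 (edgeR adjusted p up to 0.0986). COL15A1 did not pass without YT replicate 2 (edgeR adjusted p 0.0921). FRAS1 fell short of the threshold without either YT library (edgeR adjusted p up to 0.089). NID2 missed the threshold without TC replicate 2 or either YT library (edgeR adjusted p up to 0.202).

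Among elastic fibre and matricellular glycoproteins 3 of 26 were higher and 1 was lower (5 and 4 without the GC trend). FBLN5, which organises elastic fibres, was at 16.02 and 14.5 CPM in TC and 55.0 and 57.7 CPM in YT (log2 fold change 1.88, SE 0.280, edgeR adjusted p 0.00194), while FBLN1, of the same fibulin family, was lower at 309 and 194 CPM in TC and 85.4 and 87.3 CPM in YT (log2 fold change -1.54, SE 0.247, edgeR adjusted p 0.00297). EFEMP1, another fibulin, was at 6.10 and 6.21 CPM in TC and 14.5 and 13.5 CPM in YT (log2 fold change 1.18), and SPP1 (osteopontin), an integrin-binding phosphoprotein, at 159 and 184 CPM in TC and 418 and 446 CPM in YT (1.33). VTN, a serum adhesion protein, did not pass (log2 fold change -0.35, edgeR adjusted p 0.695). The proteoglycan list had 3 of 17 higher and 1 lower (5 and 2 without the GC trend): the cell surface heparan sulfate proteoglycans SDC4 (1.24) and GPC4 (80.6 and 80.9 CPM in YT against 36.5 and 36.1 CPM in TC, log2 fold change 1.15, SE 0.223, edgeR adjusted p 0.00848) and the hyaluronan synthase HAS2 (1.70) were higher, and VCAN (versican), a large matrix proteoglycan, was lower at 56.2 and 125 CPM in TC and 34.7 and 23.005 CPM in YT (log2 fold change -1.64, SE 0.432, edgeR adjusted p 0.0367). Without YT replicate 1 or 2 no member of the proteoglycan list was called. EFEMP1 lost the call without TC replicate 1 or either YT library (edgeR adjusted p up to 0.128). SPP1 did not pass without YT replicate 2 (edgeR adjusted p 0.056). SDC4, GPC4 and HAS2 fell short of the threshold without either YT library (edgeR adjusted p up to 0.143). VCAN missed the threshold without TC replicate 2 or either YT library (edgeR adjusted p up to 0.253).

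Of 19 tested genes that cut or protect the matrix, 5 were higher in YT and 2 were lower. TIMP3, an inhibitor of metalloproteinases that binds to the matrix, was at 325 and 317 CPM in TC and 1101 and 1214 CPM in YT (log2 fold change 1.85, SE 0.183, edgeR adjusted p 1.50e-04). The collagenase MMP1 was low in both lines but higher in YT, at 0.381 and 1.19 CPM in TC and 4.28 and 6.44 CPM in YT (log2 fold change 2.67, SE 0.619, edgeR adjusted p 0.0211), whereas the gelatinase MMP9 was lower, at 9.27 and 6.88 CPM in TC and 2.38 and 2.19 CPM in YT (log2 fold change -1.79, SE 0.448, edgeR adjusted p 0.0301). The 5 higher became 3 without either YT replicate or TC replicate 1, and the 2 lower became 0 without either YT replicate and 4 without TC replicate 2 or the GC trend. Integrins, which bind these matrix proteins, had 3 of 18 higher and 4 lower (6 and 5 without the GC trend). ITGA9, a receptor for tenascin and osteopontin, was lower at 62.2 and 77.1 CPM in TC and 10.5 and 9.95 CPM in YT (log2 fold change -2.76, SE 0.357, edgeR adjusted p 9.00e-04), as was the collagen receptor ITGA10 (-1.69). The collagen receptor ITGA2 and the vitronectin receptor subunit ITGB3 were higher, at 270.2 and 249.1 CPM in YT against 54.0 and 107 CPM in TC (log2 fold change 1.69, SE 0.336, edgeR adjusted p 0.00973) and 28.3 and 31.1 CPM in YT against 6.64 and 6.74 CPM in TC (log2 fold change 2.14, SE 0.350, edgeR adjusted p 0.00337). Without either YT replicate 1 integrin was called in each direction. MMP1 and MMP9 lost the call without TC replicate 1 or either YT library (edgeR adjusted p up to 0.182). ITGA10 and ITGA2 did not pass without either YT library (edgeR adjusted p up to 0.0801).

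Some of the largest differences between the lines were in a block of skeletal muscle myosin genes. The heavy chain genes for fast, perinatal and extraocular myosin lie side by side on chromosome 17. MYH8 (ENSG00000133020, GRCh38 chromosome 17, 10390322 to 10421950), the perinatal chain, was at 0.305 and 0.430 CPM in TC and 124 and 118 CPM in YT (8 and 9 counts in TC, 335-fold, exact 95% counting interval 209 to 576, edgeR adjusted p 1.37e-04). MYH2, the fast IIa chain, was at 0.229 and 0.143 CPM in TC and 42.4 and 40.4 CPM in YT (217-fold, exact 95% counting interval 114 to 475, edgeR adjusted p 3.61e-05), and MYH13, the extraocular chain, at 0.153 and 0.0478 CPM in TC and 32.7 and 30.5 CPM in YT (299-fold, exact 95% counting interval 128 to 922, edgeR adjusted p 1.35e-04). MYH1 and MYH4, the other fast chains, had 1 count in all in the TC pair and reached 10.3 and 9.89 CPM (476-fold, exact 95% counting interval 84.9 to 18862) and 3.59 and 4.43 CPM (188-fold, exact 95% counting interval 33.2 to 7483) in YT. MYHAS, a transcript antisense to the cluster, was at 2.80 and 3.16 CPM in YT against 0 and 0.0478 CPM in TC (140.2-fold, exact 95% counting interval 24.6 to 5586). The TC pair was at or next to 0 for each of these genes and the YT pair was not. These chains are alike in sequence, and how reads that fit several genes were counted is not stated, so the split between single chains is uncertain.

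The block had edges. With GAS7 (37.4 and 32.8 CPM in TC and 71.0 and 83.6 CPM in YT, log2 fold change 1.13, SE 0.262, edgeR adjusted p 0.0205), a cytoskeletal adaptor next to it, these genes formed a run of 7 neighbouring tested genes (chromosome 17, 9910606 to 10623886), each called and at least 2-fold higher, and the next longest such run in the genome held 5 genes. MYH3, the embryonic chain at the end of the cluster, was at 0.305 and 1.05 CPM in TC and 0.845 and 0.575 CPM in YT without a call (log2 fold change 0.10, SE 0.637, edgeR adjusted p 0.945), and SCO1, a mitochondrial assembly factor beyond it, was at 65.0 and 70.3 CPM in TC and 78.5 and 86.0 CPM in YT (log2 fold change 0.28, SE 0.176, edgeR adjusted p 0.365). The plot of the cluster shows this for all 12 libraries. Other muscle genes did not follow: of 25 structural genes 15 were tested, 6 were higher and 2 were lower, and the 6 were the 5 myosins and ACTN2 (alpha-actinin 2, 0.496 and 0.430 CPM in TC and 3.85 and 3.05 CPM in YT, log2 fold change 2.68, SE 0.494, edgeR adjusted p 0.00651). Skeletal actin ACTA1 had at most 2 counts in a library, and MYL1, a fast light chain, and ACTC1, cardiac actin, had 0 in all 4. The regulators MYF5, MYF6, MYOG, MYMK and MYOCD had 0 counts in all 4 libraries, which allows up to 0.172 CPM in the shallowest of them, and MYOD1 had at most 4. Without the GC trend 3 listed muscle regulators were also higher. The only one called with it was SIX2, a homeobox factor of early mesoderm, which was lower at 6.68 and 3.44 CPM in TC and 0.475 and 0.460 CPM in YT (higher in TC 11.2-fold, exact 95% counting interval 6.85 to 19.5, edgeR adjusted p 0.00192). MEF2A, a muscle transcription factor, and SMTN (smoothelin), the most abundant tested members of that list, were not called (log2 fold changes 0.56 and -0.50). The 2 lower structural genes were TNNT1 (log2 fold change -1.21) and RYR1 (-0.92). GAS7, TNNT1 and RYR1 fell short of the threshold without TC replicate 1 or either YT library (edgeR adjusted p up to 0.191). ACTN2 missed the threshold without YT replicate 1 (edgeR adjusted p 0.063).

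**Figure D4:**
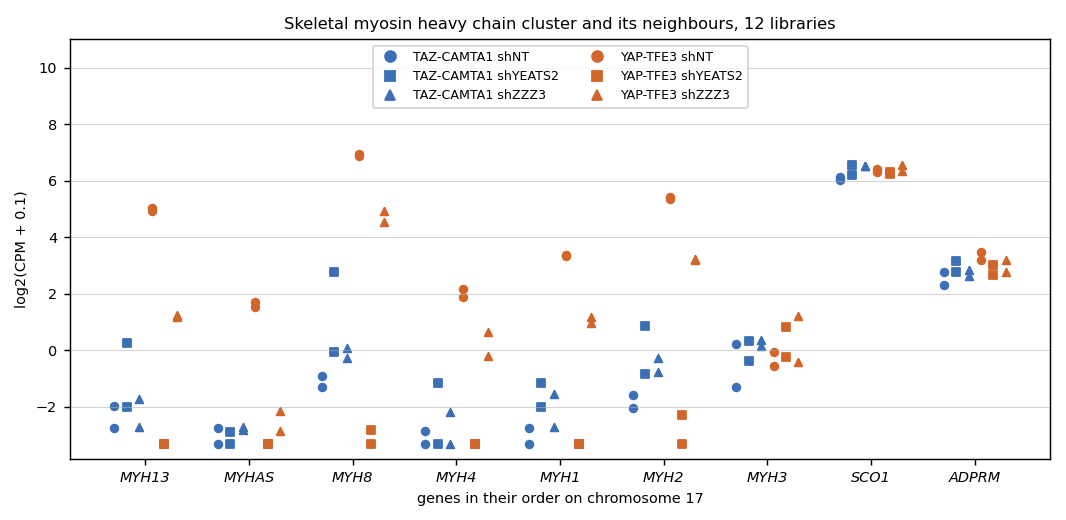
Expression on the scale log2(CPM + 0.1) (y axis) of the myosin heavy chain genes on chromosome 17 and their neighbours, in order along the chromosome (x axis, not to scale), in each of the 12 libraries. Colours give the fusion and shapes the hairpin. YAP-TFE3 shNT lies above all other libraries from MYH13 to MYH2 (MYH8 at 124 and 118 CPM), and MYH3, SCO1 and ADPRM show no such gap.

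DMD (ENSG00000198947, GRCh38 chromosome X, 31097677 to 33339609), the dystrophin gene, which ties the muscle cell's actin to its membrane, differed as much. DMD had 0 counts in both TC libraries and 579 and 334 counts, or 30.6 and 19.2 CPM, in YT, at least 174-fold higher against a floor of 3 counts in the shallower TC library (edgeR adjusted p 5.32e-05). Of the 12 tested genes of the dystrophin complex, SNTB1 (syntrophin beta 1) and SSPN (sarcospan) were also higher, at 23.02 and 20.99 CPM in YT against 5.95 and 7.17 CPM in TC (log2 fold change 1.73, SE 0.296, edgeR adjusted p 0.00424) and 31.5 and 23.1 CPM in YT against 8.32 and 15.7 CPM in TC (log2 fold change 1.19, SE 0.308, edgeR adjusted p 0.035). The others did not pass, and without the GC trend 6 were higher and 1 lower. ANK2, ankyrin B, which ties membrane channels to the spectrin skeleton, was at 1.26 and 2.15 CPM in TC and 160.0 and 161 CPM in YT (log2 fold change 6.50, SE 0.397, edgeR adjusted p 1.54e-05). MCTP1, a calcium-binding protein of the endoplasmic reticulum, had 0 and 4 counts in TC and was at 60.2 and 41.7 CPM in YT (605-fold, exact 95% counting interval 236 to 2224, edgeR adjusted p 5.32e-05). SSPN lost the call without TC replicate 1 or either YT library (edgeR adjusted p up to 0.283).

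Further genes named for the size of their difference belonged to none of the lists. KLHDC7B, a kelch-domain protein, had 1 count in each TC library and was at 10.2 and 14.4 CPM in YT against 0.0381 and 0.0478 CPM in TC (289-fold, exact 95% counting interval 79.5 to 2392). TMEM144 and CST2 (a salivary cystatin) had 1 count in the TC pair and were at 5.17 and 5.35 CPM in YT against 0.0381 and 0 CPM in TC (248-fold, exact 95% counting interval 43.96 to 9840.5) and 6.28 and 4.20 CPM in YT against 0.0381 and 0 CPM in TC (249.2-fold, exact 95% counting interval 44.2 to 9892). On the TC side, the 5 genes that were at least 8-fold lower in YT were CA4 (carbonic anhydrase 4, log2 fold change -3.62), SIX2, COL1A2, PRND (a prion protein relative, -3.13) and EDN3, of which CA4, PRND and EDN3 are named after their values were seen. RFLNA, an actin-bundling filamin partner, was at 6.33 and 3.87 CPM in TC and 0.475 and 0.690 CPM in YT (log2 fold change -2.96, SE 0.654, edgeR adjusted p 0.0164). ESX1 and TSHZ2, a homeobox and a zinc finger factor, were at 8.47 and 6.31 CPM in TC and 1.21 and 0.690 CPM in YT (log2 fold change -2.84, SE 0.339, edgeR adjusted p 5.38e-04) and at 9.61 and 13.7 CPM in TC and 1.69 and 1.61 CPM in YT (log2 fold change -2.75, SE 0.501, edgeR adjusted p 0.00606). BMX, a non-receptor tyrosine kinase of endothelial cells, was at 10.4 and 11.2 CPM in TC and 1.11 and 2.13 CPM in YT (log2 fold change -2.68, SE 0.374, edgeR adjusted p 0.00134). PIMREG, a mitotic regulator, and MXD3, a MYC-network repressor, were at 32.2 and 24.1 CPM in TC and 4.75 and 5.29 CPM in YT (log2 fold change -2.47, SE 0.307, edgeR adjusted p 7.04e-04) and at 21.1 and 12.2 CPM in TC and 3.43 and 2.53 CPM in YT (log2 fold change -2.45, SE 0.434, edgeR adjusted p 0.0053). RFLNA did not pass without TC replicate 1 or either YT library (edgeR adjusted p up to 0.152). TSHZ2 fell short of the threshold without either YT library (edgeR adjusted p up to 0.0787). MXD3 missed the threshold without YT replicate 2 (edgeR adjusted p 0.0747).

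Several secreted growth factors were higher in YT. Of 30 tested genes of growth factors and receptor tyrosine kinases 8 were higher and 3 lower, and of those lower 0 were called without either YT library. FGF5 (ENSG00000138675, GRCh38 chromosome 4, 80266639 to 80336680), a fibroblast growth factor of hair follicles and early embryos, was at 0.267 and 0.191 CPM in TC and 7.603 and 6.84 CPM in YT (31.0-fold, exact 95% counting interval 17.1 to 62.9, edgeR adjusted p 3.63e-04). AREG (amphiregulin) and EREG (epiregulin), neighbouring genes for ligands of the EGF receptor, were low but apart, AREG at 0 and 0.0478 CPM in TC and 1.003 and 1.84 CPM in YT (66.2-fold, exact 95% counting interval 11.4 to 2665, edgeR adjusted p 0.00285) and EREG at 0.381 and 0.526 CPM in TC and 2.69 and 2.82 CPM in YT (log2 fold change 2.40, SE 0.5005, edgeR adjusted p 0.0123). VEGFA, the main growth factor of blood vessels, was abundant in YT at 247 and 278 CPM in YT against 50.01 and 64.1 CPM in TC (log2 fold change 2.20, SE 0.245, edgeR adjusted p 3.54e-04). PDGFRA, a receptor for platelet-derived growth factor and a marker of fat precursors, was lower at 40.8 and 64.9 CPM in TC and 18.3 and 15.99 CPM in YT (log2 fold change -1.62, SE 0.375, edgeR adjusted p 0.0209). GDF15, a stress-induced TGF-beta family hormone that is also a p53 target, was at 0.534 and 0.239 CPM in TC and 21.2 and 17.5 CPM in YT (48.2-fold, exact 95% counting interval 30.6 to 80.5, edgeR adjusted p 1.35e-04). EREG lost the call without TC replicate 1 or either YT library (edgeR adjusted p up to 0.081). PDGFRA did not pass without either YT library (edgeR adjusted p up to 0.158).

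The p53 list itself had 4 of 16 higher and 0 lower, and 2 higher without either YT library. Beside GDF15 and CDKN1A these 4 were the death receptor TNFRSF10B (257 and 287 CPM in YT against 127 and 111 CPM in TC, log2 fold change 1.19, SE 0.166, edgeR adjusted p 0.00128) and ZMAT3, an RNA-binding zinc finger protein (61.4 and 49.3 CPM in YT against 17.3 and 31.0 CPM in TC, log2 fold change 1.20, SE 0.281, edgeR adjusted p 0.0221). In the TGF-beta and BMP list 3 of 22 were higher (5 without the GC trend) and 1 was lower. BMP6 and BMP7, bone morphogenetic proteins, were at 8.45 and 10.6 CPM in YT against 3.09 and 2.77 CPM in TC (log2 fold change 1.67, SE 0.238, edgeR adjusted p 0.00145) and 68.5 and 68.7 CPM in YT against 34.9 and 25.5 CPM in TC (log2 fold change 1.18, SE 0.218, edgeR adjusted p 0.00649), the activin antagonist FST (follistatin) at a log2 fold change of 1.30, and TGFB3 lower at -0.74. The WNT list had 2 of 29 higher (4 without the GC trend) and 4 lower. Its widest gaps were in the ligand WNT7B, with 2.90 and 1.86 CPM in TC and 0.317 and 0.230 CPM in YT (log2 fold change -2.77, SE 0.573, edgeR adjusted p 0.012), and in the secreted inhibitor SFRP4, with 0.153 and 0.334 CPM in TC and 2.11 and 1.55 CPM in YT (log2 fold change 2.56, SE 0.666, edgeR adjusted p 0.035). NKD2 and RNF43, feedback inhibitors of the pathway, were at 1.605 and -1.35. Of 18 Notch genes 8 were higher without the GC trend and 2 with it (the ligand DLL3, 1.601, and the receptor NOTCH2, 0.63) and 2 lower (the ligand-modifying LFNG, -1.43, and the target HEY1, -0.76). None of the calls in the WNT list held without either YT library. ZMAT3, TGFB3, WNT7B, SFRP4, NOTCH2, LFNG and HEY1 fell short of the threshold without TC replicate 1 or either YT library (edgeR adjusted p up to 0.259). BMP7 and RNF43 missed the threshold without either YT library (edgeR adjusted p up to 0.175). FST and NKD2 lost the call without any 1 of the 4 libraries (edgeR adjusted p up to 0.235).

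Of 17 tested genes on the list of chemokines and inflammatory cytokines 8 were higher and 1 was lower. The lower gene, TNFAIP3 (log2 fold change -0.83), codes for neither a chemokine nor a cytokine. The chemokine CXCL14 (-1.91), which is not on the list, was also lower. IL33, an alarmin of the nucleus, was at 0.954 and 1.29 CPM in TC and 11.03 and 9.72 CPM in YT (log2 fold change 3.12, SE 0.344, edgeR adjusted p 3.45e-04). CX3CL1 (fractalkine), a membrane-bound chemokine, was at 13.5 and 9.17 CPM in TC and 54.8 and 67.7 CPM in YT (log2 fold change 2.42, SE 0.447, edgeR adjusted p 0.00651). IL6 and IL1B, the classical cytokines of acute inflammation, were at 0.572 and 0.239 CPM in TC and 2.11 and 3.05 CPM in YT (6.03-fold, exact 95% counting interval 3.69 to 10.3) and 0.496 and 0.573 CPM in TC and 2.22 and 3.97 CPM in YT (5.76-fold, exact 95% counting interval 3.71 to 9.28), so they stayed under 4 CPM in all 4 libraries. The count of 8 was 5 without YT replicate 1 and 4 without YT replicate 2. The interferon list had 5 of 20 higher and 0 lower, with 1 higher without YT replicate 1 and 8 without the GC trend. IFI27 was at 4.81 and 2.77 CPM in TC and 46.5 and 37.2 CPM in YT (log2 fold change 3.43, SE 0.491, edgeR adjusted p 0.0016), and IFIT2, IFIT3 and IFI6 had log2 fold changes of 1.78, 1.43 and 1.28. Of 16 genes of antigen presentation and complement 4 were higher (8 without the GC trend) and 0 lower. The complement protease C1S was at 59.7 and 56.3 CPM in TC and 318 and 368 CPM in YT (log2 fold change 2.56, SE 0.239, edgeR adjusted p 1.28e-04) and C3, the central complement protein, at 5.53 and 4.44 CPM in TC and 14.2 and 27.8 CPM in YT (log2 fold change 2.05, SE 0.302, edgeR adjusted p 0.00184). CD55, which shields cells from complement, was at 9.54 and 12.1 CPM in TC and 36.5 and 42.4 CPM in YT (log2 fold change 1.86, SE 0.207, edgeR adjusted p 3.37e-04), and B2M, the light chain of class I molecules, at 344 and 377 CPM in TC and 619 and 687 CPM in YT (log2 fold change 0.86, SE 0.175, edgeR adjusted p 0.0105). The B2M difference did not pass once the GC trend was removed (log2 fold change 0.59). TNFAIP3 did not pass without either YT library (edgeR adjusted p up to 0.141). CX3CL1 fell short of the threshold without YT replicate 2 (edgeR adjusted p 0.056). IFIT2 and IFIT3 missed the threshold without YT replicate 1 (edgeR adjusted p up to 0.0866). IFI6 lost the call without TC replicate 2 or either YT library (edgeR adjusted p up to 0.262). B2M did not pass without TC replicate 1 or either YT library (edgeR adjusted p up to 0.118).

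The common targets of YAP and TAZ were read as the part of the programmes linked to TEAD. Of 25 such genes 5 were higher in YT and 0 lower, with a median log2 fold change of 0.50. The count was 3 without TC replicate 1, 2 without YT replicate 1 and 2 without YT replicate 2. With the GC trend removed 10 were higher. GADD45A, a growth arrest protein, was at 15.03 and 14.2 CPM in TC and 42.0 and 43.996 CPM in YT (log2 fold change 1.55, SE 0.175, edgeR adjusted p 3.54e-04). MYOF (myoferlin), a membrane repair protein, was at 149 and 180.3 CPM in TC and 383 and 394 CPM in YT (log2 fold change 1.24, SE 0.171, edgeR adjusted p 0.00119). The transcription factor FOXF2, AJUBA, which feeds back on the Hippo kinases, and LATS2, itself a Hippo kinase, had log2 fold changes of 1.04, 0.90 and 0.85. The best-known targets did not pass in this fit: CCN2 (CTGF) was at 38.5 and 41.8 CPM in TC and 53.5 and 60.7 CPM in YT (log2 fold change 0.51, SE 0.225, edgeR adjusted p 0.198), CCN1 (CYR61) at 46.3 and 37.6 CPM in TC and 66.3 and 80.4 CPM in YT (log2 fold change 0.80, SE 0.260, edgeR adjusted p 0.079) and AMOTL2 at 57.8 and 51.6 CPM in TC and 94.2 and 101.2 CPM in YT (log2 fold change 0.84, SE 0.267, edgeR adjusted p 0.076). CCN1 and AMOTL2 passed without a filter on low counts, without the GC trend, with the replicate block and by DESeq2 (adjusted p 0.0359 and 0.0319). The TEAD motif GGAATG was on 7 of 17 promoters of the list (41.2%), against 11.2% of all promoters, 13.8% of those of genes called higher and 10.1% of those called lower. A list of known targets of these coactivators may hold this motif whatever the lines did. Its share therefore does not bear on the difference between YT and TC, and called members were not set apart. TEAD1 itself was not called (0.80, edgeR adjusted p 0.0963, 0.0226 without the GC trend). Of 22 tested genes of the Hippo pathway and the TEAD family, 3 were higher: LATS2 and the upstream regulators WWC2 (log2 fold change 0.86, SE 0.244, edgeR adjusted p 0.0493) and WWC3 (log2 fold change 0.88, SE 0.185, edgeR adjusted p 0.0126), of which none stayed called without either YT library. Without the GC trend 5 were higher. FOXF2, LATS2 and WWC2 fell short of the threshold without TC replicate 1 or either YT library (edgeR adjusted p up to 0.287). AJUBA and WWC3 missed the threshold without either YT library (edgeR adjusted p up to 0.14).

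AP-1 and ERK signalling meet the TEAD factors at many enhancers. The list of ERK feedback and immediate-early genes had 6 of 23 higher in YT and 0 lower (10 and 2 without the GC trend), and the 6 became 3 without YT replicate 1 and 2 without YT replicate 2. IER3, an immediate-early survival gene, was at 1.75 and 0.908 CPM in TC and 4.38 and 4.43 CPM in YT (log2 fold change 1.65, SE 0.420, edgeR adjusted p 0.0325), DUSP5, a nuclear ERK phosphatase, at 17.2 and 14.6 CPM in TC and 43.1 and 52.4 CPM in YT (log2 fold change 1.58, SE 0.231, edgeR adjusted p 0.00177) and PHLDA1 at 75.8 and 93.4 CPM in TC and 187 and 191 CPM in YT (log2 fold change 1.16, SE 0.167, edgeR adjusted p 0.00154). The AP-1 motif TGACTCA was on 40 of 753 promoters (5.31%) of genes called higher and on 6 of 484 (1.24%) of those called lower. Of all promoters 3.16% held it. Transcripts of the called groups also differed in GC content, and its part in these shares was not tested. Glycolysis and hypoxia genes had 5 of 20 higher and 0 lower, and the 5 became 2 without TC replicate 1, 2 without YT replicate 1 and 1 without YT replicate 2. SLC2A3, the glucose transporter GLUT3, was at 36.5 and 42.3 CPM in TC and 191 and 239 CPM in YT (log2 fold change 2.44, SE 0.190, edgeR adjusted p 3.05e-05). NDRG1, a hypoxia-induced gene, hexokinase HK2 and PDK1, which keeps pyruvate out of mitochondria, had log2 fold changes of 1.25, 1.17 and 0.87. No gene of cholesterol synthesis was called in either direction by edgeR at 20 tested (3 genes at an unadjusted p under 0.05), although 2 were lower without the GC trend and 4 without TC replicate 2, and only 2 of the 20 log2 fold changes were above 0. Its most abundant members SREBF2 and FDFT1 were at -0.37 and -0.23. IER3 lost the call without TC replicate 2 or either YT library (edgeR adjusted p up to 0.146). NDRG1 did not pass without any 1 of the 4 libraries (edgeR adjusted p up to 0.157). HK2 fell short of the threshold without YT replicate 2 (edgeR adjusted p 0.0677). PDK1 missed the threshold without TC replicate 1 or either YT library (edgeR adjusted p up to 0.27).

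The genes from which the fusions were made were read next, since reads from a transgene are counted on its parents. CAMTA1 (ENSG00000171735, GRCh38 chromosome 1, 6785454 to 7769706) was at 72.4 and 60.1 CPM in TC and 26.2 and 27.1 CPM in YT (log2 fold change -1.31, SE 0.215, edgeR adjusted p 0.0034), with both TC libraries above both YT libraries. The other parents did not pass, WWTR1 (the gene of TAZ) at 174 and 216 CPM in TC and 185 and 159 CPM in YT, YAP1 at 133 and 225 CPM in TC and 226 and 209.9 CPM in YT and TFE3 at 191 and 124 CPM in TC and 223 and 239 CPM in YT (log2 fold changes -0.18, 0.28 and 0.56), though TFE3 passed without the GC trend. Reads of the transgene and of the cell's own copies cannot be told apart here. The 13 tested ATAC subunits had 0 calls by edgeR, and 1 subunit had an unadjusted p under 0.05. YEATS2, KAT14 and TADA3 differed by -0.02, -0.02 and -0.35, and ZZZ3 varied within pairs, at 25.6 and 60.4 CPM in TC and 71.2 and 49.1 CPM in YT. Of the other genes that the study names, MAP1A, a microtubule-binding protein, was lower at 38.8 and 36.6 CPM in TC and 15.7 and 16.97 CPM in YT (log2 fold change -1.20, SE 0.304, edgeR adjusted p 0.031), and MAFK (0.63, called without the GC trend) and the nuclear RNA NEAT1 (-0.17) were not called. NEAT1 was at 51.1 and 114 CPM in TC and 78.5 and 67.9 CPM in YT, with the YT values between the TC values. MAP1A lost the call without TC replicate 1 or either YT library (edgeR adjusted p up to 0.193).

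Marker lists of cell types were read to describe the cells. PPARG, the master regulator of fat cells, was at 67.9 and 65.5 CPM in TC and 62.4 and 71.0 CPM in YT, but the mature fat markers FABP4 and LEP had 0 counts in the 4 libraries and ADIPOQ had at most 1. Summed over the 21 adipogenic genes, expression was 1671 and 1514 CPM in TC and 1900 and 1944 CPM in YT. In that list PLIN4 (a lipid droplet coat, 13.8 and 13.8 CPM in YT against 2.48 and 2.20 CPM in TC, log2 fold change 2.51, SE 0.359, edgeR adjusted p 0.00156), KLF15 (12.1 and 14.8 CPM in YT against 3.78 and 2.72 CPM in TC, log2 fold change 2.02, SE 0.309, edgeR adjusted p 0.0023), SCD and CEBPB were higher (7 without the GC trend) and PDGFRA was lower. Endothelial genes summed to 1088 and 831 CPM in TC and 941 and 1016 CPM in YT, with 1 of 22 higher (PROX1, of lymphatic vessels, 1.16) and 1 lower (TEK, the angiopoietin receptor, 19.1 and 26.6 CPM in TC and 8.92 and 9.60 CPM in YT, log2 fold change -1.29, SE 0.312, edgeR adjusted p 0.0251). No endothelial member was called without either YT library, and 2 in each direction were without the GC trend. Muscle structure genes summed to 129 and 77.3 CPM in TC and 267 and 253 CPM in YT, where the 5 myosins of the cluster were the largest part. SCD and PROX1 did not pass without TC replicate 1 or either YT library (edgeR adjusted p up to 0.284). TEK fell short of the threshold without TC replicate 2 or either YT library (edgeR adjusted p up to 0.179).

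Neuronal and glial genes were low, with 6 of 23 members at 0 in all 4 libraries and sums of 152 to 165 CPM. SYP (synaptophysin) was at 4.54 and 3.87 CPM in TC and 1.11 and 1.04 CPM in YT (log2 fold change -1.89, SE 0.365, edgeR adjusted p 0.00845), and MAP2, a dendrite protein, had 1 and 3 counts in TC and 10 and 9 in YT (6.16-fold, exact 95% counting interval 2.05 to 24.9), with 2 of the list higher without the GC trend. Keratin and epithelial genes had 4 of 19 higher and 1 lower, and sums of 624 and 391 CPM in TC and 650 and 705 CPM in YT, with 0 members at 0 throughout. ESRP1, an epithelial splicing factor, was at 1.98 and 2.29 CPM in TC and 14.8 and 13.4 CPM in YT (log2 fold change 2.68, SE 0.260, edgeR adjusted p 1.36e-04). The keratins went both ways: KRT81 was at 8.35 and 5.21 CPM in TC and 21.8 and 21.9 CPM in YT (log2 fold change 1.67, SE 0.374, edgeR adjusted p 0.0176), KRT17 had 7 and 2 counts in TC and 22 and 14 in YT (5.19-fold, exact 95% counting interval 2.45 to 12.3), and KRT5 had 14 and 5 counts in TC and 0 in YT, at least 2.24-fold higher in TC against a floor of 3 counts in the shallower YT library. In the cadherin list 4 of 16 were higher and 1 (VIM, vimentin, -0.93) was lower: CDH12 (5.70 and 6.04 CPM in YT against 1.11 and 1.05 CPM in TC, log2 fold change 2.35, SE 0.309, edgeR adjusted p 9.21e-04), FAT2 (4.59 and 4.37 CPM in YT against 1.11 and 0.812 CPM in TC, log2 fold change 2.12, SE 0.277, edgeR adjusted p 9.00e-04), CDH2 or N-cadherin (8.08 and 9.72 CPM in YT against 4.04 and 4.78 CPM in TC) and CDH13 (log2 fold change 0.98). The HOX list had 3 of 33 lower, HOXC12 (-1.56), HOXA13 (-1.11) and HOXA5 (-0.70), and 0 higher, none of the 3 was called without either YT library, and without the GC trend 3 were higher and 4 lower. Of 15 immune cell genes 6 were tested, with sums of 9.82 to 17.6 CPM and 0 calls by edgeR (1 gene at an unadjusted p under 0.05, and 1 lower without the GC trend). The most abundant, CD4 and CD14, were at -0.69 and -0.42, and the pan-leukocyte gene PTPRC had at most 3 counts in a library. SYP, KRT81 and HOXA13 missed the threshold without either YT library (edgeR adjusted p up to 0.16). MAP2, KRT5, VIM, CDH2, CDH13, HOXC12 and HOXA5 lost the call without TC replicate 1 or either YT library (edgeR adjusted p up to 0.256). KRT17 did not pass without any 1 of the 4 libraries (edgeR adjusted p up to 0.214).

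Whether these differences also held between the fusion lines when another hairpin was present was read from the other 8 libraries. These entered the shNT comparison through scaling, the filter on mean counts and the shared estimate of spread. The hairpin differs there too, so these are comparisons of the same lines in another state and not repeats. Under shYEATS2, 2242 of 18415 genes (12.2%) differed between YT and TC, and under shZZZ3 482 (2.62%). Of the 1699 genes called under shNT, 964 (56.7%) kept their sign under shYEATS2 and 997 (58.7%) under shZZZ3. Of the genes lower in YT, 67.4% and 64.3% kept their sign under shYEATS2 and shZZZ3, and of the genes higher in YT 49.8% and 55.0%. Unrelated signs would agree about as often as not, and the shares of genes higher in YT lay close to that. The share over all genes tested was not counted. Called the same way were 337 genes under shYEATS2 (19.8% of the 1699 and 15.03% of the 2242) and 132 under shZZZ3 (7.77% of the 1699 and 27.4% of the 482), and called the opposite way were 223 and 59. In direct tests of the change of the difference, 1725 genes (9.37%) passed for shYEATS2 and 795 (4.32%) for shZZZ3.

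The integrated stress response had medians of -0.70 (0 higher and 3 lower of 21) under shYEATS2 and -0.43 (0 higher and 1 lower) under shZZZ3, so that most members did not differ by the test there. DDIT3 was at 26.5 and 49.9 CPM in TC shYEATS2, 16.2 and 24.4 CPM in TC shZZZ3, 32.3 and 30.3 CPM in YT shYEATS2 and 21.5 and 20.2 CPM in YT shZZZ3, and INHBE at 3.84 and 21.8 CPM in TC shYEATS2, 5.85 and 7.70 CPM in TC shZZZ3, 3.41 and 2.79 CPM in YT shYEATS2 and 4.73 and 1.65 CPM in YT shZZZ3. For both genes the YT shNT libraries were the highest of the 12, and the DDIT3 pairs overlapped under shYEATS2 and under shZZZ3. The difference between the lines changed from shNT to shYEATS2 for DDIT3 (-3.64, edgeR adjusted p 3.78e-04) and INHBE (-7.28, edgeR adjusted p 8.89e-04). Both genes were named for their shNT difference, which this change subtracts, so the p-values do not allow for that choice. The same limit holds for the change of LAMA1 given below. Mitosis genes had medians of -0.82 (4 of 20 lower) and -0.37 (0 called), and replication genes -0.70 (3 lower) and -0.43 (0 called). Lysosomal genes had medians of 0.21 (4 higher) and 0.26 (2 higher). Changes of whole lists were not tested. The plot of list medians by hairpin shows these values, and it shows muscle structure at 0.16 under shNT and -1.88 under shYEATS2.

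**Figure D5:**
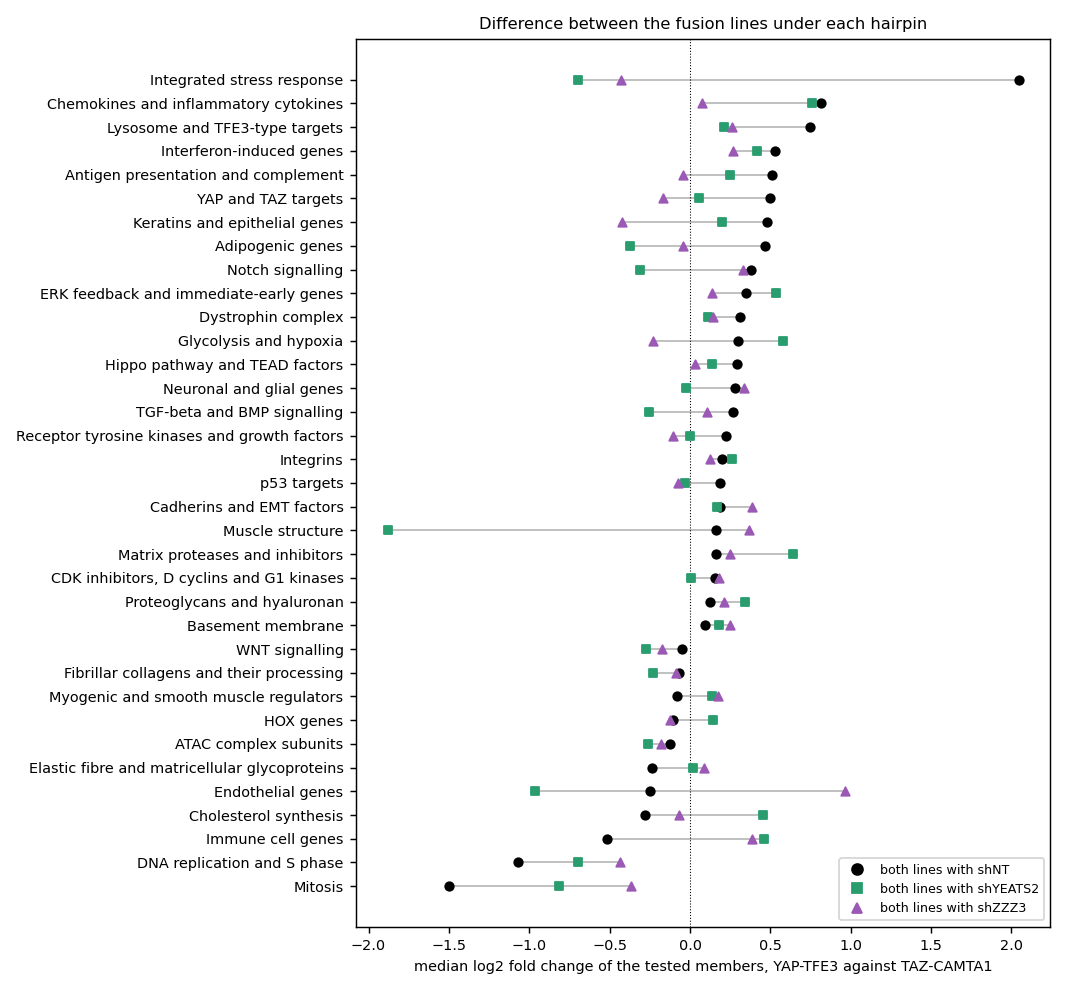
Median log2 fold change of the tested members of 35 gene lists between the YAP-TFE3 and TAZ-CAMTA1 lines (x axis), with both lines carrying shNT (black circles), shYEATS2 (green squares) or shZZZ3 (purple triangles). The integrated stress response lies at 2.05 under shNT and at -0.70 and -0.43 under the other hairpins, while mitosis and DNA replication lie below 0 under all 3.

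The myosin genes were higher in YT under shZZZ3 too and lower under shYEATS2. MYH8 was at 6.73 and 0.854 CPM in TC shYEATS2, 0.731 and 0.962 CPM in TC shZZZ3, 0.0416 and 0 CPM in YT shYEATS2 and 23.1 and 30.6 CPM in YT shZZZ3, so that YT shYEATS2 was the group nearest to 0. LAMA1 also turned, at 28.1 and 16.9 CPM in TC shYEATS2, 62.8 and 89.6 CPM in TC shZZZ3, 4.08 and 4.18 CPM in YT shYEATS2 and 59.2 and 77.9 CPM in YT shZZZ3 (log2 fold change 5.05 under shNT and -2.42 under shYEATS2, difference -7.47, edgeR adjusted p 1.42e-05). DMD stayed higher in YT under all 3 hairpins though at lower levels, at 0.0352 and 0.301 CPM in TC shYEATS2, 0.0406 and 0 CPM in TC shZZZ3, 1.08 and 0.929 CPM in YT shYEATS2 and 6.37 and 9.77 CPM in YT shZZZ3. COL1A2 was lower in YT throughout, at 41.5 and 32.6 CPM in TC shYEATS2, 85.2 and 97.2 CPM in TC shZZZ3, 8.87 and 9.45 CPM in YT shYEATS2 and 13.2 and 11.1 CPM in YT shZZZ3. CAMTA1 was also lower throughout, at 110.5 and 78.2 CPM in TC shYEATS2, 154 and 137 CPM in TC shZZZ3, 23.6 and 23.9 CPM in YT shYEATS2 and 30.4 and 23.2 CPM in YT shZZZ3.

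Called in the same direction under all 3 hairpins were 75 genes, 47 higher and 28 lower in YT, and 680 of the 1699 kept the same sign in all 3. Of the 75 genes, 14 were members of a list, among them FGF5, PPARGC1A, DMD and COL1A2. Another 5 are named here after their values were seen. FLRT3, an adhesion protein of axons and vessels, was at 0 and 0.0956 CPM in TC and 3.06 and 1.90 CPM in YT under shNT, and at 0.211 and 0.201 CPM in TC shYEATS2, 0.162 and 0.107 CPM in TC shZZZ3, 14.2 and 10.8 CPM in YT shYEATS2 and 6.55 and 10.1 CPM in YT shZZZ3. SEMA3A, a repelling guidance cue, was at 0.0381 and 0.143 CPM in TC and 2.32 and 1.44 CPM in YT under shNT, and at 0.0705 and 0.151 CPM in TC shYEATS2, 0 and 0.107 CPM in TC shZZZ3, 35.2 and 32.9 CPM in YT shYEATS2 and 3.49 and 7.23 CPM in YT shZZZ3. KITLG, the ligand of the receptor KIT, was at 0.992 and 0.860 CPM in TC and 8.71 and 4.60 CPM in YT under shNT, and at 1.52 and 2.71 CPM in TC shYEATS2, 1.83 and 1.82 CPM in TC shZZZ3, 14.9 and 13.99 CPM in YT shYEATS2 and 16.96 and 31.0 CPM in YT shZZZ3. For these 3 genes every YT library lay above every TC library with the same hairpin. In the other direction EDN3 (endothelin 3) was at 1.56 and 1.15 CPM in TC and 0.106 and 0.0575 CPM in YT under shNT, and at 6.73 and 13.4 CPM in TC shYEATS2, 2.40 and 2.14 CPM in TC shZZZ3, 1.75 and 1.75 CPM in YT shYEATS2 and 0.182 and 0.254 CPM in YT shZZZ3, and the chemokine CXCL14 was at 13.2 and 9.84 CPM in TC and 3.17 and 2.82 CPM in YT under shNT, and at 23.3 and 17.3 CPM in TC shYEATS2, 103 and 94.8 CPM in TC shZZZ3, 0.375 and 0.465 CPM in YT shYEATS2 and 9.06 and 5.58 CPM in YT shZZZ3. For EDN3 and CXCL14 every YT library lay below every TC library with the same hairpin.

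The differences were spread over the genome. The share of tested genes that were called ran from 6.37% on chromosome 21 to 14.9% on chromosome 18, and 0 of 25 mitochondrial genes were called. Median log2 fold changes ran from -0.18 on chromosome 19 to 0.23 on chromosome 13 over the nuclear chromosomes, and from -0.13 on chromosome 14 to 0.15 on chromosome 13 without the GC trend. The 25 mitochondrial genes had a lower median, at -0.40, and at -0.58 without the GC trend. Whether any of this comes from differences in gene copy number between the pools was not tested.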

How the data were processed

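RNA of SW872 cells was sequenced by the authors as stranded, poly(A)-selected, paired-end libraries, run through bcbio-nextgen and aligned with HISAT2 to hg38 with Ensembl annotation. Salmon with tximport is also described, and which of these gave the deposited counts is not stated. The deposited tables hold raw, whole-number counts per gene for 58735 IDs, with no normalization or filter by the authors. Strand setting and treatment of reads with several matches are not given in the sources used here, so values of paralogs and antisense genes are uncertain.

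Libraries were grouped by their labels. The 18415 genes that averaged 5 or more counts per library were scaled by TMM and fitted in edgeR 4.0.16 (R 4.3.3, robust quasi-likelihood, prior count 2 for log2 fold changes, 6 groups, 6 residual degrees of freedom), with YT shNT minus TC shNT as the contrast. Tests were two-sided, with Benjamini-Hochberg adjustment across the 18415 genes, and called means an adjusted p under 0.05. The fit of all 6 groups shares 1 estimate of spread. The fit was tested on simulated data with known changes, where it called 27 of 100 genes changed 2-fold and 95 of 100 changed 4-fold. A gene without a call may therefore still differ by 2-fold. The changed genes were picked above a higher mean count than the filter, and the simulated libraries had no GC trend. These shares may thus not hold in the real libraries or for genes with fewer counts. Ratios of genes with few counts are ratios of pooled rates with exact 95% intervals, and against 0 counts a floor of 3 counts in the shallower library was used. Total counts were 17451893 to 27596240 in the 4 libraries. IDs were joined to GENCODE release 44 (99.1% found), as 2610 tested IDs carry another symbol in the file. Promoters (300 bases) came from RefSeq (GRCh38.p14) and were found for 12656 of 18405 symbols. Motifs were searched on both strands, and every match of TCACGTG holds one of CACGTG.

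The members and lists were chosen with earlier results of these data known. Named genes were the 10 protein-coding genes with the largest differences in each direction among those called with a mean of at least 5 CPM in the higher group, up to 4 called members of each list with the largest differences (where fewer than 2 were called, the 2 most abundant), and genes that the study names. Others (CHAC1, ATF3, ASNS, ATF4, ATF5, PHGDH, VLDLR, SLC7A11, SLC3A2, RRAGC, LAMP1, CTSB, MCOLN1, CENPF, MYHAS, MYH4, MYH3, GAS7, SCO1, ACTN2, TNNT1, RYR1, TNFAIP3, VIM, PPARG, SCD, FLRT3, SEMA3A, KITLG, EDN3, CXCL14, CA4, PRND) were chosen after their values were seen. Some genes under these rules are not reported here. Alternatives were DESeq2 1.42.0, other scaling, other filters, the 4 libraries alone, the GC trend removed, a replicate block and each library left out.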

Additional observations from a re-analysis of the deposited data

Results flagged for a closer look

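The difference between YT and TC changed with the hairpin for 98 of the genes named in the text, by a direct test in edgeR of the difference under shYEATS2 or shZZZ3 against that under shNT, at an adjusted p under 0.05. Each value is that change on the log2 scale, where a negative value means that YT was lower relative to TC than under shNT. The shNT libraries enter both sides of each such change, and the genes were named from the shNT contrast. The share of all genes tested that passed was 9.37% for shYEATS2 and 4.32% for shZZZ3. Where both hairpins passed, the one with the smaller adjusted p is given.

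Among genes with a log2 fold change above 0 under shNT, the difference fell under shYEATS2 for MYH8 (-13.2), MYH13 (-10.4), MYH2 (-10.4), MYH1 (-8.51), KLHDC7B (-8.13), LAMA1 (-7.47), INHBE (-7.28) and MYH4 (-6.91). It also fell for MCTP1 (-6.34), GDF15 (-6.15), GPC4 (-6.01), DMD (-5.94), CDH12 (-5.56), CX3CL1 (-5.48), CST2 (-5.38) and CCND2 (-5.09). Smaller changes of this kind were those of ACTN2 (-4.74), FBLN5 (-4.51), STC2 (-4.35), IFI27 (-4.11), BMP7 (-4.09), IL33 (-3.95), SLC7A11 (-3.92), SFRP4 (-3.88) and CHAC1 (-3.78). Below these came TMEM144 (-3.66), BMP6 (-3.64), DDIT3 (-3.64), KRT17 (-3.61), C1S (-3.6), ATF3 (-3.48), PLIN4 (-3.47) and ASNS (-3.41). Less again changed ANK2 (-3.36), KLF15 (-3.33), SPP1 (-2.97), RRAGD (-2.88), SLC3A2 (-2.81), SLC2A3 (-2.47), ESRP1 (-2.43) and GAS7 (-2.22). The least of these changes were in ITGB3 (-2.02), FOXF2 (-1.73), GPNMB (-1.7), IFIT3 (-1.5), AJUBA (-1.49), DUSP5 (-1.42), WWC2 (-1.35), TNFRSF10B (-1.33) and NOTCH2 (-0.92). Among genes with a log2 fold change above 0 under shNT, the difference rose under shYEATS2 for MAP2 (4.39), CDH2 (3.06), FST (2.98) and EFEMP1 (1.94). Among genes with a log2 fold change below 0 under shNT, the difference fell under shYEATS2 for CXCL14 (-3.42). Among genes with a log2 fold change below 0 under shNT, the difference rose under shYEATS2 for HOXC12 (5.04), VCAN (3.48), LFNG (2.86), RNF43 (2.83), MMP9 (2.58) and ITGA10 (2.15). It also rose for PIMREG (2.0), KIF20A (1.85), VIM (1.77), TNNT1 (1.5), TYMS (1.28) and COL1A2 (1.2).

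Among genes with a log2 fold change above 0 under shNT, the difference fell under shZZZ3 for FGF21 (-5.11), C3 (-4.43), FAT2 (-3.79), TIMP3 (-2.6), IL6 (-2.55) and SNTB1 (-2.39). It also fell for IL1B (-2.39), VEGFA (-2.37), AMOTL2 (-2.21), LOX (-2.09), PPARGC1A (-2.07), CD55 (-2.07) and NDRG1 (-1.86). Smaller changes of this kind were those of LATS2 (-1.83), CCN2 (-1.74), HK2 (-1.7), PHLDA1 (-1.51), MAFK (-1.33), MYOF (-1.25) and GADD45A (-1.17). Among genes with a log2 fold change below 0 under shNT, the difference rose under shZZZ3 for CA4 (5.06), PRND (4.38), BMX (3.45), SYP (3.34) and SIX2 (2.6). It also rose for ESX1 (2.54), PDGFRA (2.32), TEK (2.2), COL1A1 (2.11), ITGA9 (1.92) and FBLN1 (1.38).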

How the results depend on the processing

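Direction was kept by all 152 called genes named in the text in every alternative fit, and of their 2107 alternative values 1858 also stayed past the threshold. The fits reuse the same libraries and no called gene had overlapping pairs, so a kept direction was largely given in advance. Most losses came with fewer libraries: 34 genes when only the 4 shNT libraries were fitted, 39 and 13 without TC replicates 1 and 2, and 69 and 73 without YT replicates 1 and 2. Genes lost by other settings numbered 7 with library totals in place of TMM, 4 without a filter on low counts, 4 with a mean of at least 50 counts, 2 with the GC trend and the median of neighbouring genes removed, and 1 each with DESeq2, size factors by relative log expression, and the GC trend removed. The number of genes called was 2710 without a filter (1287 of them lower), 941 in the 4 libraries alone (628 higher and 313 lower), 3344 with the GC trend removed (2019 and 1325) and 3302 with neighbouring genes also removed (1942 and 1360). Leaving out 1 library gave 486 to 3108 called, 383 to 1567 higher and 103 to 1541 lower. Genes called the same way under shYEATS2 numbered 571 without a filter, 830 with the GC trend removed, 744 with neighbours also removed and 105 to 459 without 1 library. Under shZZZ3 the numbers were 307, 272, 255 and 63 to 179, and 84 with a mean of at least 50 counts. A fit of the 4 shNT libraries alone gives no value for the other hairpins. Of 490 alternative list counts, 322 stayed within 1.5 times, and why the others moved was not tested. For genes named without a call, 39 alternative values passed, of ATF4, AMOTL2, CCN1, CD4, MAFK, MEF2A, SCO1, SMTN, TEAD1, TFE3 and VLDLR, mostly with the GC trend removed.

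Replicate differences of TC shNT and YT shNT correlated at -0.438 over 13258 genes, so replicate numbers were not taken to pair these samples, although over all pairs of groups the correlations reached 0.898 (TC shNT with YT shZZZ3). With the replicate block 2225 genes were called, and no called gene named in the text was lost. With the replicate block and the GC trend removed 4066 were called (2382 higher and 1684 lower), 1 named gene was lost, and 1064 and 378 were called the same way under shYEATS2 and shZZZ3. A crossed pairing, chosen after seeing the data, called 2602 (1542 higher and 1060 lower). Reversals in sign were limited to genes that were not called. With the block the log2 fold changes of NEAT1, CENPF and PPARG were 0.0065, 0.049 and 0.0076, and with the block and the GC trend removed those of KAT14 and YEATS2 were 0.0014 and 0.017, with YEATS2 at 0.014 with the GC trend alone removed. Leaving out 1 library gave log2 fold changes of ATF5 from -0.25 to 0.44, CENPF from -0.76 to 0.86, KAT14 from -0.14 to 0.041, MCOLN1 from -0.20 to 0.33, MYH3 from -0.53 to 1.002, NEAT1 from -0.67 to 0.49, PHGDH from -0.13 to 0.75, PPARG from -0.13 to 0.064, TADA3 from -0.72 to 0.064, VTN from -0.72 to 0.076, YAP1 from -0.073 to 0.68, YEATS2 from -0.11 to 0.016 and ZZZ3 from -0.032 to 1.20.

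Depth limits genes with few counts most, since 3 counts stand for 0.114 to 0.172 CPM in the 4 libraries, and 2 libraries a group limit all calls.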
